A study of Mus musculus with 20 samples.

Results

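The genes of oxidative phosphorylation encode the subunits of the 5 protein complexes that make ATP in the inner membrane of the mitochondrion. The set holds 95 of the 46517 genes in the table. Members are the protein-coding genes named as subunits of complex I (Ndufa, Ndufb, Ndufc, Ndufs, Ndufv and mt-Nd), complex II (Sdha to Sdhd), complex III (Uqcr and mt-Cytb), complex IV (the numbered Cox subunits and mt-Co) or complex V (Atp5 and mt-Atp), without the Ndufaf assembly factors. The nucleus encodes 82 of them, with 35 in complex I, 4 in complex II, 8 in complex III, 18 in complex IV and 17 in complex V. Mitochondrial DNA encodes the other 13, with 7 in complex I, 1 in complex III, 3 in complex IV and 2 in complex V. Ndufa4 and its paralogue Ndufa4l2 are counted with complex IV, in which the Ndufa4 protein is found. The rule takes in Atp5s, which is not a structural subunit, and leaves out Cox4i1, Cox4i2, Cyc1, Cycs and Ndufab1 because of their names. A further 10 genes have matching names and are not protein-coding in the annotation. Of these, Ndufb4c held 261 to 778 counts per library and the others held 0 to 6.

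RNA was sequenced from 2 white matter tracts of mice that carry a knockout of Zdhhc9, an enzyme gene of protein palmitoylation, and of wild-type mice. There were 6 libraries from knockout and 5 from wild-type corpus callosum, the tract between the cerebral hemispheres, and 5 from knockout and 4 from wild-type optic nerve. In the sample labels the mutants are called knockout, and in the series' design text knockdown. No other allele, agent, strain or age is given. Libraries are named as in their titles, by genotype (KO or WT), tissue (CCg or ON) and sample number. The labels do not say that each library came from a different animal, so the p-values measure only the spread between these libraries, which may be technical. Among the callosum libraries 2 knockout and 2 wild-type samples carry 2-digit numbers and the rest carry longer ones, and 2 knockout nerve samples carry numbers with a letter. The labels do not say what the number formats mean.

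Electrons from NADH enter the chain at complex I and those from succinate at complex II, pass through complex III to complex IV, and reduce oxygen there. Complexes I, III and IV pump protons, and complex V uses the gradient to make ATP. All but complex II combine nuclear subunits, imported into the mitochondrion, with subunits that are transcribed from mitochondrial DNA as long precursors and translated inside the organelle, so each complex depends on both genomes. In white matter the ATP serves the axons, which restore their ion gradients with it, and the glia that ensheath them.

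Totals per library were 15401130 to 26095622 estimated counts. Zdhhc9 was at 49.6 ± 5.09 CPM (counts scaled to a common library total; SD, n = 6) in knockout and 185 ± 17.4 (n = 5) in wild-type callosum, and at 41.3 ± 7.28 (n = 5) and 132 ± 12.3 (n = 4) in the nerve, with no overlap in either tissue. Summed neuron markers ranged from 1984 to 8019 CPM in knockout and from 1615 to 5640 CPM in wild-type callosum, and from 348 to 637 CPM in the nerve. Summed oligodendrocyte markers ranged from 36028 to 68606 CPM in knockout callosum, from 56441 to 86116 CPM in wild-type callosum, and from 55935 to 89046 CPM in the nerve. None of the 10 oligodendrocyte markers, which mark myelinating cells, or of the 16 neuron markers was at 0 in any group. The biological coefficient of variation was 23.7% in the callosum and 20.2% in the nerve.

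The mitochondrially encoded members lie on the circular mitochondrial genome (mm10, M) from mt-Nd1 (ENSMUSG00000064341.1, 2751 to 3707), through mt-Nd2 (3914 to 4951), mt-Co1 (5328 to 6872), mt-Co2 (7013 to 7696), mt-Atp8 (7766 to 7969), mt-Atp6 (7927 to 8607), mt-Co3 (8607 to 9390), mt-Nd3 (9459 to 9806), mt-Nd4l (9877 to 10173), mt-Nd4 (10167 to 11544) and mt-Nd5 (11742 to 13565) to mt-Cytb (14145 to 15288). Their one gene on the opposite strand is mt-Nd6 (13552 to 14070). Genes of this genome are exons without introns. The end of mt-Atp8 and the start of mt-Atp6, both of complex V, share 43 bases, and mt-Nd4l and mt-Nd4, both of complex I, share 7. Each pair sits on a single processed messenger RNA. A short read that falls within the 43 shared bases cannot be given to 1 gene, so the counts of mt-Atp8 and mt-Atp6 are not fully separate. The 7 bases of the other pair are too short for that. The junctions are shown because the genes of each pair overlap on 1 message. Capitals mark the shared bases, and the runs cover M:7907-7989 and M:10147-10193 on the plus strand of GRCm38.
mt-Atp8/mt-Atp6: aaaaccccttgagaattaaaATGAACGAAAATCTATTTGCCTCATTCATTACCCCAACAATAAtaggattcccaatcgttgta
mt-Nd4l/mt-Nd4: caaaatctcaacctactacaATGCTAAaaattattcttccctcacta
In both junctions the capitals open with the ATG start codon of the downstream gene and close with the TAA stop codon of the upstream gene.

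Per kilobase of transcript, averaged over the 20 libraries, the mitochondrial messages stood above every nuclear member. The highest were the core subunits of complex IV and the membrane subunit of ATP synthase: mt-Co1 at 7139 CPM per kb, mt-Co2 at 6305, mt-Atp6 at 5531 and mt-Co3 at 5148. Cytochrome b of complex III, mt-Cytb, followed at 3777 CPM per kb. The complex I messages were lower, from 2741 CPM per kb for mt-Nd1 and 2566 for mt-Nd4 down to 1142 for mt-Nd3 and 952 for mt-Nd6. The highest nuclear member, Atp5b (the catalytic beta subunit of ATP synthase, named after its level was seen), was at 344 CPM per kb, followed by Cox8a at 304 and Cox6a1 at 273. At the low end of the detected nuclear members stood isoforms known from other tissues, with Cox7a1 at 5.84 CPM per kb, Ndufa4l2 at 4.14, Cox6a2 at 1.78 and Cox8b at 0.90. Cox7b2 held 0 to 6 counts per library and Cox8c held none in any library. Both are named here for their low counts, after these were seen.

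As shares of all counts, the 13 mitochondrial members took 4.33%, 4.51%, 4.15%, 3.13% and 3.69% in the wild-type callosum libraries WT_CCg_28, WT_CCg_30, WT_CCg_685232, WT_CCg_717652 and WT_CCg_7198587. In knockout callosum their share had a lowest value of 3.34%, a median of 4.62% and a highest value of 4.83%. Knockout libraries were thus the 4 highest of the tissue, but library KO_CCg_717651 sat among the lowest and the ranges overlapped. In the nerve the wild-type libraries WT_ON_700858, WT_ON_701297, WT_ON_717652 and WT_ON_719857 had 4.39%, 4.22%, 4.27% and 3.34%. The knockout libraries KO_ON_48038A7, KO_ON_48118A4, KO_ON_693452, KO_ON_717651 and KO_ON_719856 had 2.89%, 3.08%, 4.10%, 3.76% and 2.69%. The order was the reverse of that in the callosum: 3 wild-type nerves lay above all knockout nerves, the wild-type library WT_ON_719857 lay inside the knockout range, and 3 knockout nerves were below every wild-type one. Group means were 3.96% ± 0.557 (SD, n = 5) in wild-type and 4.41% ± 0.563 (n = 6) in knockout callosum, and 4.06% ± 0.482 (n = 4) in wild-type and 3.30% ± 0.601 (n = 5) in knockout nerve. The 82 nuclear members together took 0.529% to 0.768% of counts. Their group means were close, at 0.632% ± 0.086 and 0.661% ± 0.066 in wild-type and knockout callosum and 0.611% ± 0.052 and 0.620% ± 0.045 in wild-type and knockout nerve. In bulk tissue such as this, fewer cells of a type and less RNA per cell cannot be told apart.

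**Figure D1:**
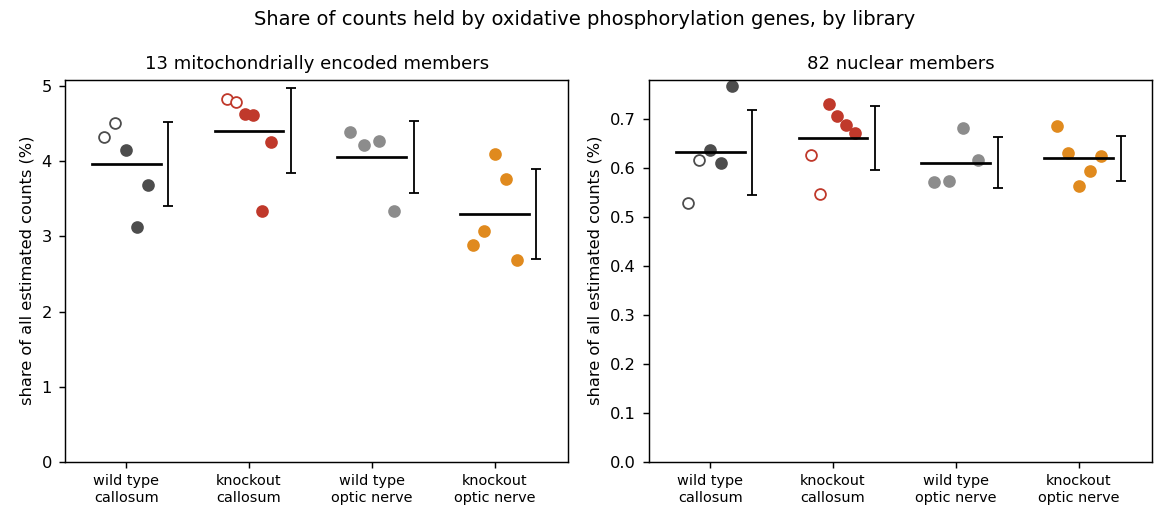
Share of all estimated counts (%) held by the 13 mitochondrially encoded members (left) and the 82 nuclear members (right), 1 point per library, by genotype and tissue. Black lines are group means, error bars are the SD, and open points are callosum libraries with 2-digit sample numbers. The mitochondrial share is highest on average in knockout callosum (4.41%) and lowest in knockout nerve (3.30%), while the nuclear shares lie between 0.529% and 0.768%.

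In the corpus callosum no oxidative phosphorylation gene passed the test between knockout and wild type (edgeR's quasi-likelihood test, Benjamini-Hochberg adjusted p under 0.05). Of the members, 79 nuclear and all 13 mitochondrial ones had enough counts to be tested. Over all 15519 genes tested in this tissue, 0.0387% passed, so the members' count of 0 is close to that background. At an unadjusted p under 0.05 stood 1 nuclear and 0 mitochondrial members by edgeR, 0 and 1 by DESeq2, and 1 and 0 by limma-voom, beside 11.7% of all genes by edgeR. DESeq2 and limma-voom passed 0 members as well. No member's groups were free of overlap, against 0.889% of all genes.

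The 13 mitochondrial members all had positive log2 fold changes in the callosum, with a median of 0.13 and a range of 0.01 to 0.37, where the median of all tested genes was -0.01 and 47.5% were positive. The largest values belonged to complex I subunits of the membrane arm. For mt-Nd5, wild-type libraries WT_CCg_28, WT_CCg_30, WT_CCg_685232, WT_CCg_717652 and WT_CCg_7198587 held 2235, 1919, 2258, 1527 and 1735 CPM, and the knockout libraries had a lowest level of 1690, a median of 2495 and a highest level of 2626. All knockout libraries except KO_CCg_717651 were above every wild-type one, and the ranges overlapped through that library. The difference was 0.30 (SE 0.14, edgeR adjusted p = 0.44). mt-Nd6 differed by 0.37 (SE 0.21, edgeR adjusted p = 0.487) and mt-Atp8, the small membrane subunit of complex V, by 0.23 (SE 0.16, edgeR adjusted p = 0.565). The messages of complex IV were nearest to 0, with mt-Co1 and mt-Co2 both at 0.06 and mt-Co3 at 0.01. The 13 messages share libraries, and all but mt-Nd6 lie on the same strand and share precursors, so their common sign is not 13 separate observations.

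The nuclear members of the callosum were split evenly, with 39 positive and 40 negative log2 fold changes, a median of -0.00 and a range of -0.37 to 0.42. Medians by complex were -0.01 for complex I, -0.03 for complex II, 0.02 for complex III, -0.05 for complex IV and 0.03 for complex V. Among the complex I genes Ndufb4 was the highest at 0.19 (SE 0.13) and Ndufb3 the lowest at -0.15 (SE 0.09), both accessory subunits. Ndufb4 shares sequence with Ndufb4c, to which 64.8% to 74.95% of the counts of the pair were assigned, so its own level is uncertain. In complex II the flavoprotein Sdha was at 0.04 (SE 0.09) and the membrane anchor Sdhc at -0.08 (SE 0.07), and in complex III the small subunit Uqcrq was at 0.08 (SE 0.18) and the hinge protein Uqcrh at -0.08 (SE 0.11).

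Complex IV had the widest nuclear spread in the callosum, and it came from isoforms of low level. Ndufa4l2, a paralogue of Ndufa4 known to be induced by low oxygen, was the nuclear member at an unadjusted p under 0.05. Its wild-type levels were 2.40, 2.05, 1.70, 2.51 and 2.19 CPM in libraries WT_CCg_28, WT_CCg_30, WT_CCg_685232, WT_CCg_717652 and WT_CCg_7198587. Its knockout levels had a lowest value of 1.47, a median of 1.71 and a highest value of 1.89 CPM. Wild-type library WT_CCg_685232 lay inside the knockout range and the other 4 lay above it. The difference was -0.37 (SE 0.16, edgeR adjusted p = 0.413). Ndufa4 itself was at 0.22 (SE 0.16), Cox6a2 at 0.42 (SE 0.29), Cox6b2 at -0.32 (SE 0.19) and Cox7a1 at -0.30 (SE 0.32), none of which passed. In complex V the 3 genes for the identical c subunit of the rotor ring took different values: Atp5g1 was at 0.16 (SE 0.15), Atp5g3 at 0.10 (SE 0.13) and Atp5g2 at -0.23 (SE 0.12, edgeR adjusted p = 0.469). Atp5g2 shares sequence with 2 other genes that took 17.9% to 42.4% of the joint counts.

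**Figure D2:**
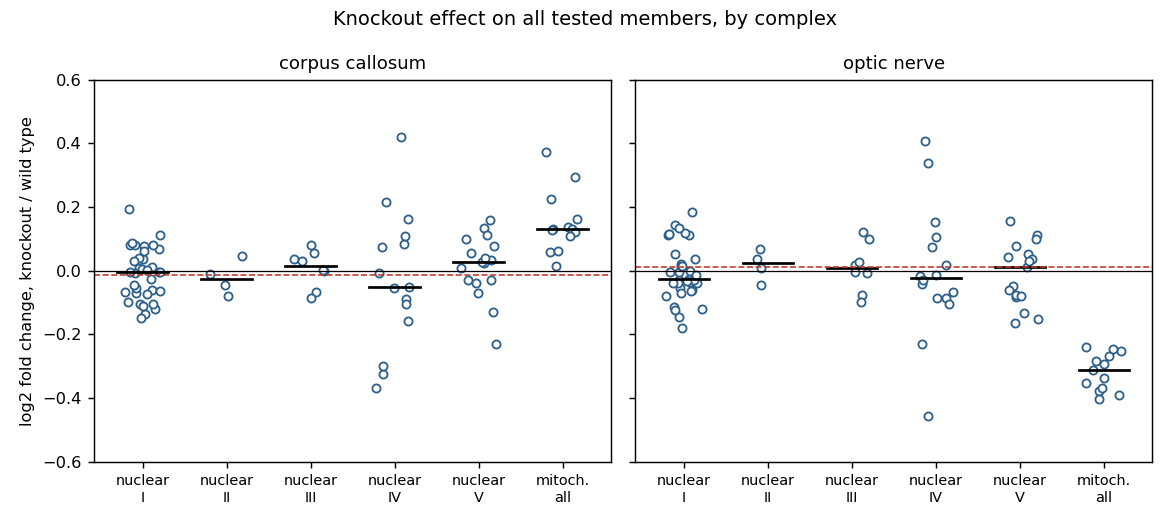
Log2 fold change of knockout over wild type for each tested member in callosum (left) and nerve (right), by complex for nuclear members and together for the mitochondrial ones. Black lines are medians, the red dashed line is the median of all tested genes, and filled points would mark members that passed the test. Nuclear members scatter around 0 in both tissues, while the mitochondrial ones have medians of 0.13 in callosum and -0.31 in nerve.

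In the callosum, cell markers differed on average between the genotypes, and the medians depended on the covariates and libraries used. The part of cell content in these values was not tested. Knockout callosum held more neuron marker RNA (5659 ± 2118 CPM, SD, n = 6) than wild type (3660 ± 1719, n = 5), and less oligodendrocyte marker RNA (50099 ± 12058 against 73283 ± 13236). With average neuron marker expression as a covariate, the nuclear median was -0.11 with 6 of 79 positive, the mitochondrial median was 0.20 with 13 of 13 positive, and no member passed. With number format added to that covariate, an alternative chosen after seeing the data, the mitochondrial median was 0.08 with 11 of 13 positive and the nuclear median -0.09 with 6 of 79 positive, and no member passed. Within the 2-digit libraries the mitochondrial median was 0.09 with 12 of 13 positive, and within the longer numbers it was 0.23 with 13 of 13 positive. Without wild-type library WT_CCg_717652 the mitochondrial median dropped to 0.05, with 10 of 13 positive. Without wild-type library WT_CCg_7198587, which is high in nuclear members, the nuclear median was 0.09 with 66 of 79 positive.

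In the optic nerve the mitochondrial messages lay on the other side of 0. No member passed the edgeR test among 80 nuclear and 13 mitochondrial ones, where 0.0129% of 15556 genes passed. At an unadjusted p under 0.05 were 5 mitochondrial members and 1 nuclear member by edgeR, 8 and 1 by DESeq2, and 7 and 1 by limma-voom, beside 5.48% of all genes by edgeR. DESeq2 and limma-voom passed 0 members. All 13 mitochondrial log2 fold changes were negative, from -0.40 to -0.24 with a median of -0.31, where the median of all tested genes was 0.01 and 47.2% were negative. As in the callosum, the 13 messages share libraries and are not separate observations.

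mt-Cytb, the subunit that carries both quinone sites of complex III, had the smallest p of the set in the nerve. Its wild-type levels were 4998, 5010, 4788 and 4052 CPM in libraries WT_ON_700858, WT_ON_701297, WT_ON_717652 and WT_ON_719857. Its knockout levels were 3756, 3529, 4287, 4256 and 3707 CPM in libraries KO_ON_48038A7, KO_ON_48118A4, KO_ON_693452, KO_ON_717651 and KO_ON_719856. Only wild-type library WT_ON_719857 fell among the knockout values. The difference was -0.29 (SE 0.11, edgeR adjusted p = 0.845).

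mt-Nd4l, a small membrane subunit of complex I, was at 438, 462, 429 and 442 CPM in the same wild-type nerves and at 373, 314, 407, 422 and 381 CPM in the knockout ones. Every knockout value was below every wild-type value, which held for 2.05% of all genes in either direction. The difference was -0.24 (SE 0.10, edgeR adjusted p = 0.845). mt-Atp6, the proton-channel subunit of ATP synthase, was at 4241, 4232, 4206 and 3326 CPM in wild type and 2579, 2933, 3969, 3558 and 2356 CPM in knockout. Knockout libraries KO_ON_693452 and KO_ON_717651 lay above wild-type library WT_ON_719857 and the others lay below it, so the groups overlapped. Its difference was -0.39 (SE 0.17, edgeR adjusted p = 0.845). The other members at an unadjusted p under 0.05 were mt-Nd4 at -0.34 (SE 0.15) and mt-Co3 at -0.31 (SE 0.14), and the lowest value of all was -0.40 (SE 0.25) for mt-Nd3.

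**Figure D3:**
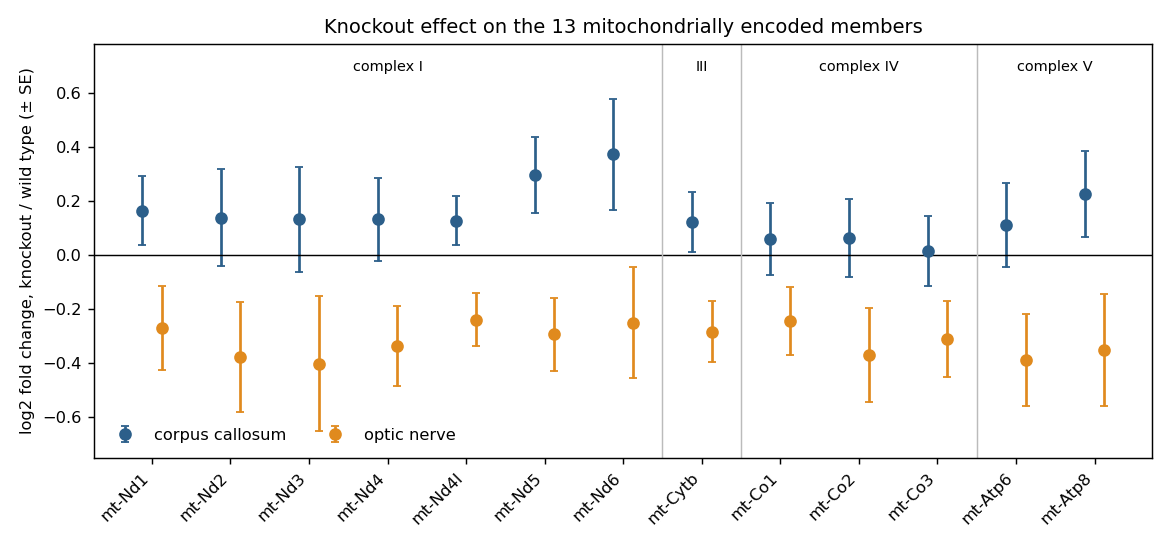
Log2 fold change of knockout over wild type, with its SE, for the 13 mitochondrially encoded members in corpus callosum (blue) and optic nerve (orange), grouped by complex. Callosum values run from 0.01 to 0.37 and nerve values from -0.40 to -0.24, and no point passed the test in either tissue.

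The low values in the nerve belonged to 3 of the knockout libraries. Relative to the median of all nerve libraries, the median mitochondrial member was at -0.43, -0.28 and -0.44 on the log2 scale in libraries KO_ON_48038A7, KO_ON_48118A4 and KO_ON_719856, with 0 of 13 members above that median in each. It was at 0.13 and 0.00 in knockout libraries KO_ON_693452 and KO_ON_717651. Among the wild-type nerves WT_ON_719857 was low as well, at -0.10 with 11 of 13 members below the median. Cell markers of some of these libraries stood apart, and their part in the result was not tested. The 5 erythrocyte markers summed to 5174 CPM in KO_ON_48118A4, 3521 in KO_ON_719856 and 4102 in WT_ON_719857, but to 1512 in KO_ON_48038A7, where the remaining nerves had 1403 to 2001. KO_ON_719856 had the lowest oligodendrocyte sum of the nerves (55935 CPM), the highest microglia sum (1479 CPM for 8 markers) and retina markers at 57.1 CPM for 5 genes, against 7.81 to 12.7 CPM in the other nerves. Leaving out each library in turn kept the group median between -0.41 and -0.26. Without the knockout libraries whose numbers hold a letter it was -0.19, with 13 of 13 negative and 0 members at an unadjusted p under 0.05.

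The nuclear members of the nerve centred on 0, with 36 positive and 44 negative values, a median of -0.01, and medians by complex between -0.03 for complex I and 0.02 for complex II. Ndufs4 (13:114287795-114388258, mm10, minus strand), an accessory subunit of complex I whose loss is known to cause Leigh-like disease, was the member at an unadjusted p under 0.05. It was at 28.8, 26.8, 31.6 and 27.6 CPM in wild-type nerves WT_ON_700858, WT_ON_701297, WT_ON_717652 and WT_ON_719857. The knockout nerves, in the order used above, were at 24.7, 26.3, 24.9, 26.2 and 26.1 CPM. The groups did not overlap, as for 2.05% of all genes in either direction, though the nearest values were 26.3 and 26.8. The difference was -0.18 (SE 0.08, edgeR adjusted p = 0.845). The highest in complex I was the iron-sulfur subunit Ndufs7 at 0.18 (SE 0.14), in complex II the iron-sulfur subunit Sdhb at 0.07 (SE 0.08), in complex III the core protein Uqcrc1 at 0.12 (SE 0.10), and in complex V the delta subunit Atp5d at 0.16 (SE 0.12). The lowest in these complexes after Ndufs4 were Sdhd at -0.05 (SE 0.10), Uqcrc2 at -0.10 (SE 0.07) and Atp5s at -0.16 (SE 0.16). Complex IV again had the widest range, from -0.46 (SE 0.62) for Cox8b, with few counts, to 0.41 (SE 0.35) for Cox6a2. Ndufa4l2 was at -0.23 (SE 0.24) and Cox7a1 at 0.34 (SE 0.20), and none of these passed.

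For the knockout effect, the nerve estimate minus the callosum estimate had the same sign for all 13 mitochondrial members. However, 0 genes of any kind (0.0%) passed the test of that difference by edgeR, DESeq2 or limma-voom. In the fit of all 20 libraries the nerve effect minus the callosum effect had a median of -0.46 over these members, from -0.62 for mt-Nd6 to -0.30 for mt-Co1. The median of all 16440 genes was 0.03 and 46.0% were negative. At an unadjusted p under 0.05 were 7 of 13 by edgeR, 9 by DESeq2 and 7 by limma-voom, beside 6.83% of all genes by edgeR. The 13 messages share libraries, so neither their common sign nor these counts are separate observations. The smallest p belonged to mt-Nd5, with a difference of -0.58 (SE 0.19, edgeR adjusted p = 0.725), followed by mt-Nd4l at -0.36 (SE 0.13) and mt-Cytb at -0.40 (SE 0.15). The nuclear members had a median of 0.00, with 41 positive, 39 negative and 1 at an unadjusted p under 0.05. The median over the mitochondrial members stayed between -0.59 and -0.39 without any 1 library and was -0.58 without the 2-digit callosum libraries, with 13 of 13 negative there.

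Near-identical nuclear copies bear on the mitochondrial levels. Other genes in the table that share sequence with a mitochondrial member took from 0.03% to 22.3% of the joint counts with mt-Co2, from 0.05% to 15.5% with mt-Atp6, from 2.92% to 12.7% with mt-Co1 and from 0% to 13.7% with mt-Nd3. For mt-Co2 the share was highest in knockout nerve KO_ON_48038A7, and knockout callosum KO_CCg_717651 had 15.5% and wild-type callosum WT_CCg_717652 had 14.7%, which are also low in mitochondrial members. With the copies added to their members the mitochondrial median was 0.13 in the callosum and -0.29 in the nerve, and no member passed in either tissue.

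Between the tissues of wild-type mice, the nerve and the callosum differed most in size, within the set, in isoforms of complex IV. Of 80 nuclear members 12 rose in the nerve and 5 were lower there, with a median of 0.08 on the log2 scale. Over all 16440 genes 51.3% passed, 25.3% higher and 26.0% lower. No mitochondrial member passed by edgeR or limma-voom, 1 passed by DESeq2, and 2 were at an unadjusted p under 0.05 by each of these tools, beside 56.2% of all genes by edgeR. By edgeR those were mt-Nd6 at 0.54 (SE 0.23, edgeR adjusted p = 0.056) and mt-Nd5 at 0.32 (SE 0.14, edgeR adjusted p = 0.0672), and the mitochondrial median was 0.09. By complex, 4 members of complex I were higher and 1 lower, 2 of complex II higher, none of complex III, 5 of complex IV higher and 4 lower, and 1 of complex V higher. Without wild-type callosum library WT_CCg_28 the calls were 8 higher and 3 lower with 1 mitochondrial member, and without wild-type callosum library WT_CCg_7198587 they were 23 and 3. Without wild-type nerve WT_ON_719857 there were 3 mitochondrial calls, and without wild-type callosum library WT_CCg_685232 there were 2. Of the nuclear members 5 also differed by at least 1 on the log2 scale, 4 higher and 1 lower, all of complex IV, where 26.2% of all genes did.

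Several subunits of complex IV come as a widely expressed isoform and a second one known from heart, skeletal muscle, brown fat or testis. The stretch of 100 bases before the start of each gene (RefSeq, GRCm38.p6, gene strand) is shown for 3 pairs whose balance differed between the tissues, with CG dinucleotides in capitals, since such dinucleotides mark the broad promoters of genes active in most tissues. The windows are 7:30626115-30626214 for Cox6b1, 7:4753095-4753194 for Cox6b2, 9:79759854-79759953 for Cox7a2, 7:30184071-30184170 for Cox7a1, 19:7217617-7217716 for Cox8a and 7:140900447-140900546 for Cox8b. Cox7a1 is on the plus strand and the others are on the minus strand. The starts are those of RefSeq, and the stretches of Cox6b1, Cox7a2 and Cox7a1 reach into the gene spans of GENCODE. Cox6b1 is named as the partner of Cox6b2.
Cox6b1: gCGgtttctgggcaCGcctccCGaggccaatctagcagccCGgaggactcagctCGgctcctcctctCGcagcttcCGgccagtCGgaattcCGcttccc
Cox6b2: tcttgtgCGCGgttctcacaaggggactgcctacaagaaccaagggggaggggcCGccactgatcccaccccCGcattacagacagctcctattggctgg
Cox7a2: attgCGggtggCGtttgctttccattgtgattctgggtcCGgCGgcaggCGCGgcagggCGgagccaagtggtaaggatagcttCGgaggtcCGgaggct
Cox7a1: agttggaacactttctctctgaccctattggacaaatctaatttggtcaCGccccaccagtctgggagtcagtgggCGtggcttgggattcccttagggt
Cox8a: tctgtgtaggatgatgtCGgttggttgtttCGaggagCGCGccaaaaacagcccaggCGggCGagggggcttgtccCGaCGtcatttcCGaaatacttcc
Cox8b: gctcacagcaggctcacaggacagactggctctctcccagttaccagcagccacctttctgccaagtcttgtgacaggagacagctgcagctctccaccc
The widely expressed partner has 9 CG dinucleotides in each pair, and the other isoform has 4 in Cox6b2, 2 in Cox7a1 and 0 in Cox8b. In the full window of 300 bases (250 before and 50 after the start) the counts were 17 against 10 for the Cox6b pair, 20 against 7 for the Cox7a pair and 19 against 2 for the Cox8 pair. The median was 19 over the 68 of 82 nuclear members with such a window and 13 over 17491 genes. Members ranged from 2 to 43. A low count was not particular to the second forms, since Cox7b, at 48.0 CPM per kb, had 5. Ndufa4l2 had no such window, so its pair is not shown.

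Cox7a1 (ENSMUSG00000074218.2, 7:30184144-30186078), the heart and muscle form of subunit VIIa, was low in the callosum and higher in the nerve. Wild-type callosum libraries WT_CCg_28, WT_CCg_30, WT_CCg_685232, WT_CCg_717652 and WT_CCg_7198587 held 1.03, 1.13, 0.356, 0.811 and 0.992 CPM. Wild-type nerve libraries WT_ON_700858, WT_ON_701297, WT_ON_717652 and WT_ON_719857 held 4.07, 3.55, 4.44 and 4.36 CPM, all above every callosum library. The nerve was higher by 2.26 on the log2 scale (SE 0.28, edgeR adjusted p = 1.16e-06). Its partner Cox7a2 was level between the tissues, at 60.2 ± 8.12 CPM (SD, n = 5) in callosum and 58.0 ± 5.97 (n = 4) in nerve. Per kilobase, Cox7a1 made up 2.11% ± 0.767 of the pair in wild-type callosum and 9.61% ± 0.582 in wild-type nerve.

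Cox6b2 (ENSMUSG00000051811.13, 7:4751792-4753094), known as the testis form of subunit VIb, was at 4.73, 5.44, 3.49, 6.80 and 4.63 CPM in the same wild-type callosum libraries. It was at 15.7, 15.5, 17.2 and 12.5 CPM in the wild-type nerves, again with no overlap. The nerve was higher by 1.60 (SE 0.19, edgeR adjusted p = 7.85e-07), and Cox6b2 was 6.33% ± 1.72 of its pair per kilobase in callosum and 16.6% ± 1.75 in nerve.

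Ndufa4l2 (ENSMUSG00000040280.9, 10:127514967-127517154) rose by 1.64 in the nerve (SE 0.21, edgeR adjusted p = 2.04e-06), from the 1.70 to 2.51 CPM given above to 8.25, 6.57, 7.11 and 5.12 CPM. Ndufa4 (6:11900292-11907497) was level, at 74.8 ± 13.5 CPM in wild-type callosum and 72.8 ± 5.87 in wild-type nerve. Ndufa4l2 was 1.46% ± 0.424 of this pair per kilobase in callosum and 4.36% ± 0.694 in nerve, with no library of one tissue in the range of the other.

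Cox8b (ENSMUSG00000025488.8, 7:140898945-140900446), the heart, muscle and brown fat form of subunit VIII, was near absent from the callosum. Wild-type callosum libraries held 0, 0, 0, 1 and 0 counts and wild-type nerves held 3, 17, 26 and 24. These sums of 1 and 70 counts gave a depth-scaled ratio of 81.9 with a 95% interval of 14.2 to 3279, which covers counting error only. The fit passed the gene (edgeR adjusted p = 6.36e-05), but its fold depends on the prior count. Cox8a (ENSMUSG00000035885.4, 19:7215153-7217616), the common form, went the other way. It was at 168, 210, 174, 208 and 241 CPM in wild-type callosum and at 107, 119, 142 and 135 CPM in wild-type nerve, without overlap, and was lower in the nerve by 0.67 on the log2 scale (log2 fold change -0.67, SE 0.14, edgeR adjusted p = 3.69e-04). The rise of the minor form did not make up for this, since Cox8b was 0.891% ± 0.511 of the pair per kilobase in the nerve.

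The subunit VIa pair was lower in the nerve as a whole. Cox6a1 (5:115345642-115348981), the common form, was at 160, 179, 154, 189 and 204 CPM in wild-type callosum and 106, 118, 143 and 143 CPM in wild-type nerve, and its log2 fold change was -0.48 (SE 0.13, edgeR adjusted p = 0.00527). The muscle form Cox6a2 (ENSMUSG00000030785.7, 7:128205435-128206387) was at 1.16, 0.615, 1.86, 1.47 and 1.49 CPM in callosum and 0.729, 0.502, 0.489 and 0.806 CPM in nerve, with overlap through callosum library WT_CCg_30. Its log2 fold change was -1.07 (SE 0.34, edgeR adjusted p = 0.0128). Cox6c, a small subunit without a second form in the set, was at -0.24 (SE 0.09, edgeR adjusted p = 0.0319), a call lost in 9 of 17 alternatives. Cox7a2l (17:83501918-83517330), a factor that joins complexes III and IV into supercomplexes, was higher in the nerve by 0.26 (SE 0.08, edgeR adjusted p = 0.00909).

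**Figure D4:**
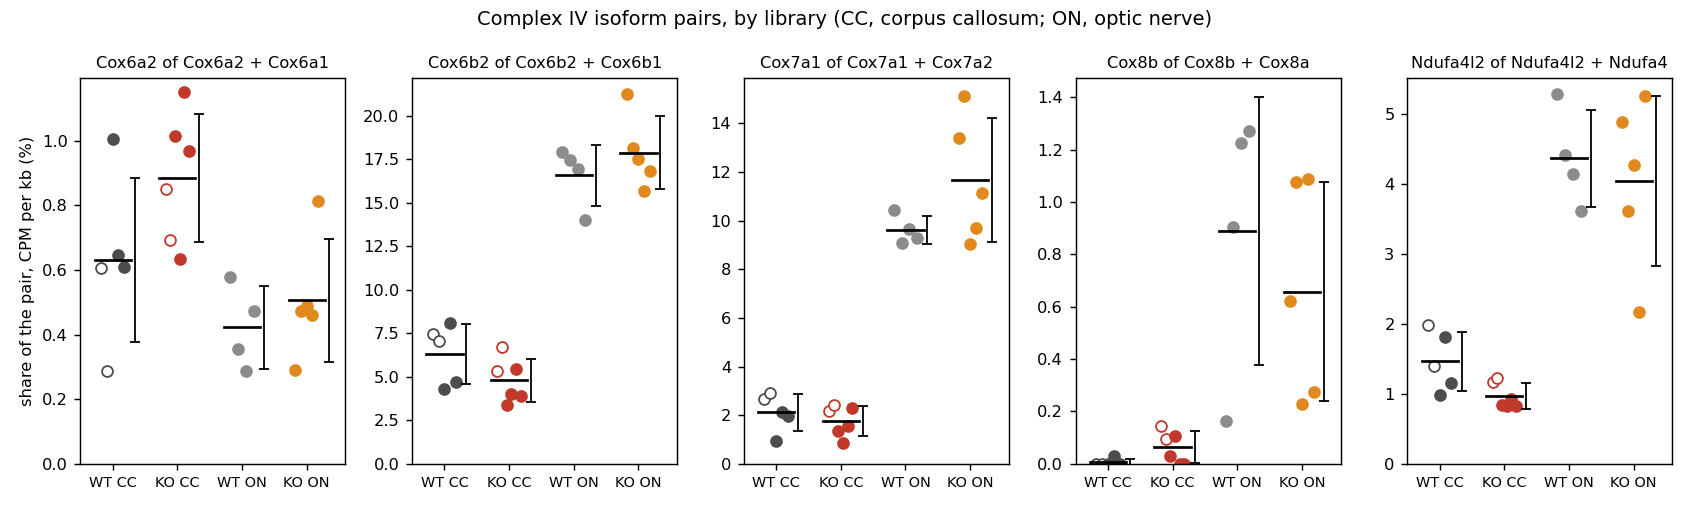
Share of each isoform pair of complex IV that belongs to the minor form, computed from CPM per kilobase of transcript, 1 point per library and 1 panel per pair. Black lines are means, error bars are the SD, and open points are callosum libraries with 2-digit numbers. Cox6b2, Cox7a1 and Ndufa4l2 are higher in every wild-type nerve than in any wild-type callosum library, Cox6a2 is not, and Cox8b reaches 0.891% on average in wild-type nerve.

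Outside complex IV the tissue differences that passed were small. In complex II both membrane anchors rose in the nerve, Sdhc (1:171127165-171150603) by 0.35 (SE 0.09, edgeR adjusted p = 0.00433) and Sdhd by 0.26 (SE 0.10, edgeR adjusted p = 0.0298). The catalytic head did not follow, with Sdha at -0.00 (SE 0.09) and Sdhb at 0.00 (SE 0.09). Sdhc was at 75.8, 84.1, 71.0, 78.1 and 78.2 CPM in wild-type callosum and 83.8, 93.6, 115 and 102 CPM in wild-type nerve, so the lowest nerve library met the highest callosum one. In complex I Ndufb11 rose by 0.36 (SE 0.11, edgeR adjusted p = 0.00947) and Ndufv3 by 0.34 (SE 0.12, edgeR adjusted p = 0.0251), both accessory subunits, and the iron-sulfur subunit Ndufs1 was lower at -0.22 (SE 0.08, edgeR adjusted p = 0.0332), a call lost in 9 of 17 alternatives. Ndufb7 and Ndufb10, named only for having passed, were at 0.31 and 0.35. In complex V the epsilon subunit Atp5e rose by 0.35 (SE 0.12, edgeR adjusted p = 0.0213). Other members with the largest rise or fall of their complex did not pass. These were Ndufa1 of complex I at 0.40, Uqcr10 at 0.38 and Uqcrfs1 at -0.18 in complex III, and Atp5a1 of complex V at -0.12. Of the 3 c-ring genes per kilobase, Atp5g1 made up 8.39% ± 0.579 in wild-type callosum and 7.22% ± 0.406 in wild-type nerve, with ranges that met only between 7.68% and 7.77%. In the knockout it was at 9.34% ± 0.686 and 7.98% ± 0.297. Atp5g2 was at 33.0% ± 2.44 and 33.5% ± 2.15 and Atp5g3 at 58.6% ± 2.38 and 59.3% ± 1.80 in wild type. These shares were not tested.

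Markers of several cell types moved with these tissue differences. Summed fibroblast and meningeal markers were at 63.7 ± 20.8 CPM (SD, n = 5) in wild-type callosum and 3977 ± 911 (n = 4) in wild-type nerve, and no marker of the 7 was at 0. Pericyte and smooth muscle markers, 6 in all, were at 203 ± 23.2 and 367 ± 59.4 CPM, and endothelial markers, 5 in all, at 184 ± 9.85 and 320 ± 13.7 CPM. Erythrocyte markers, 5 in all, were at 284 ± 140 CPM in wild-type callosum and 2116 ± 1326 in wild-type nerve. The 8 astrocyte markers were at 4283 ± 240 and 10142 ± 958 CPM, the 8 microglia markers at 528 ± 21.4 and 1132 ± 52.5 CPM, and the neuron markers at 3660 ± 1719 and 437 ± 132 CPM. Striated muscle markers stayed low, at 5.62 ± 2.15 and 9.31 ± 6.80 CPM for the 11 together. The part of any of these in the isoform differences was not tested.

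In knockout tissues Cox7a1, Cox6b2, Ndufa4l2 and Cox8b were again higher in the nerve, and mitochondrial messages passed as well. In knockout mice 24 nuclear members rose in the nerve and 9 were lower, with a median of 0.07, where 62.9% of all genes passed, 5251 higher (31.9% of all genes) and 5089 lower. All 12 nuclear members higher in wild-type nerve were also higher in knockout nerve, and of the 5 lower ones 4 were also lower, with Cox6a1 short of the threshold (log2 fold change -0.23, edgeR adjusted p = 0.109). Cox7a1 rose by 2.91 (SE 0.26, edgeR adjusted p = 7.15e-09), Cox6b2 by 2.04 (SE 0.18, edgeR adjusted p = 5.02e-09) and Ndufa4l2 by 1.79 (SE 0.19, edgeR adjusted p = 1.26e-07). Cox7a1 in knockout nerves KO_ON_48038A7, KO_ON_48118A4, KO_ON_693452, KO_ON_717651 and KO_ON_719856 was at 6.42, 6.59, 3.79, 4.13 and 5.43 CPM, and in knockout callosum it had a lowest level of 0.394, a median of 0.738 and a highest of 0.914 CPM. Cox8b summed to 62 counts in knockout nerve and 10 in knockout callosum, a depth-scaled ratio of 7.56 with a 95% interval of 3.85 to 16.5. The knockout effect on Cox7a1 did not pass the test of a difference between tissues (0.65, SE 0.38, edgeR adjusted p = 0.745), nor did that on Cox6b2 (0.44, SE 0.26, edgeR adjusted p = 0.745). The largest such value in the set was that of Cox8b, at -2.92 (SE 1.35, edgeR adjusted p = 0.725), which rests on the low counts given above and ranged from -4.31 to -1.42 over the alternatives.

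In the knockout, 7 of 13 mitochondrial members were lower in the nerve than in the callosum and none was higher, with a median of -0.31. Of all 16440 genes 62.9% passed in this contrast, 5089 of them lower, and the median was -0.00. mt-Nd4l was at -0.49 (SE 0.09, edgeR adjusted p = 4.8e-05) and its groups did not overlap, since its highest nerve level of 422 CPM was below its lowest callosum level of 469 CPM. The others were mt-Atp8 at -0.60 (adjusted p = 0.00666), mt-Nd2 at -0.54 (0.018), mt-Nd4 at -0.51 (0.00447), mt-Atp6 at -0.43 (0.021), mt-Co1 at -0.31 (0.0249) and mt-Nd1 at -0.31 (0.0467), with each edgeR adjusted p in parentheses. The calls of mt-Co1 and mt-Nd1 were lost in 7 and 12 of 21 alternatives. These contrasts use the same knockout libraries as the genotype contrasts above. The count dropped to 3 without knockout nerve KO_ON_48038A7, without knockout nerve KO_ON_719856, and without the 2-digit callosum libraries.

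The nuclear calls of this contrast also depended on the 2-digit callosum libraries. Without them 13 nuclear members were higher and 20 lower in knockout nerve, against 24 and 9 with them, and the median was -0.04. In the wild type, leaving them out gave 8 higher and 4 lower, against 12 and 5. In complex I the highest rise was that of Ndufv3 at 0.54 (SE 0.11, edgeR adjusted p = 2.67e-04), and Ndufv2, a flavoprotein-fragment subunit, was lower at -0.40 (SE 0.09, edgeR adjusted p = 5.83e-04). Ndufa4 was lower at -0.36 (SE 0.13, edgeR adjusted p = 0.0252), which was lost in 6 of 21 alternatives.

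**Figure D5:**
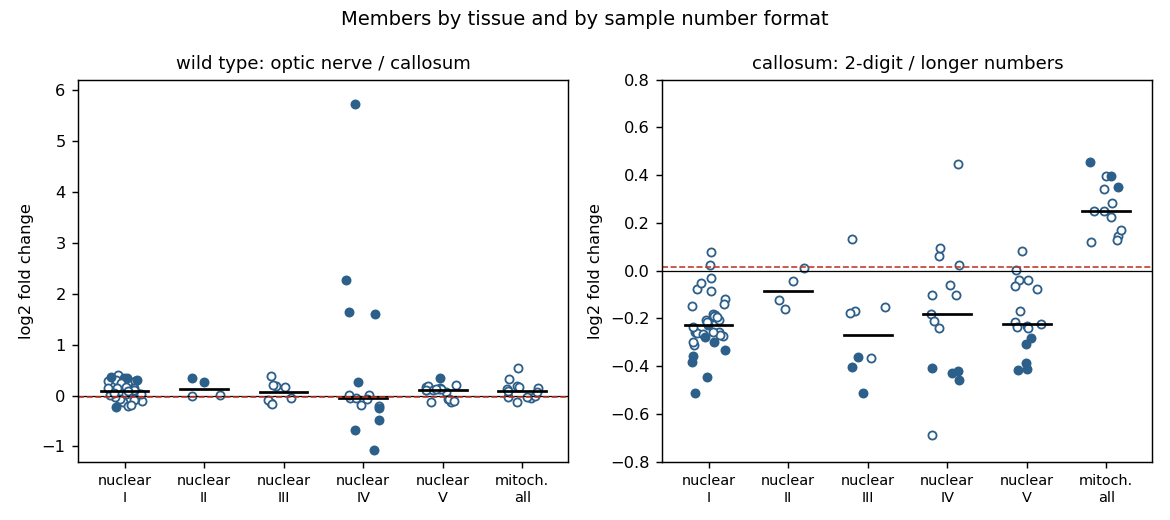
Log2 fold change of each tested member between nerve and callosum of wild-type mice (left) and between callosum libraries with 2-digit and with longer sample numbers (right). Filled points passed the test, black lines are medians, the red dashed line is the median of all tested genes, and the scales of the panels differ. On the left the points far from 0 are isoforms of complex IV, and on the right the nuclear median is -0.21 and the mitochondrial one 0.25.

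Within the callosum, nuclear and mitochondrial members lay on opposite sides of 0 by number format. With genotype in the model, 21 of 79 nuclear members were lower in the 2-digit libraries and none was higher, where 27.8% of all 15519 genes passed, 14.5% higher and 13.3% lower. Of the nuclear members 69 had negative values, with a median of -0.21, beside a median of 0.02 and 48.0% negative over all genes. The groups did not overlap for 10 of them, all lower, against 5.01% of all genes. The mitochondrial members were positive in 13 of 13 cases (52.0% of all genes) with a median of 0.25, and 3 rose: mt-Nd3 by 0.46 (SE 0.15, edgeR adjusted p = 0.0427), mt-Atp8 by 0.40 (SE 0.11, edgeR adjusted p = 0.0255) and mt-Nd4 by 0.35 (SE 0.12, edgeR adjusted p = 0.0427). The ratio of mitochondrial to nuclear member counts was 8.23 and 7.75 in the 2-digit knockout and wild-type libraries, 6.02 and 5.49 in the others, and therefore split the same way in both genotypes. Depth and cell markers moved with this split, and their part in it was not tested. Totals were 15401130 to 19531571 counts in the 2-digit libraries and 21917519 to 25375187 in the others, without overlap. The 16 neuron markers summed to 1615 to 5267 CPM in the 2-digit libraries and 2998 to 8019 CPM in the others, and the 10 oligodendrocyte markers to 44296 to 86116 and 36028 to 78686 CPM.

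The lower nuclear members were 9 of 35 tested in complex I, 3 of 8 in complex III, 4 of 15 in complex IV and 5 of 17 in complex V. None of the 4 in complex II passed, but 3 of these were negative, with a median of -0.08. Of all genes 13.3% were lower. Ndufa1, a small membrane subunit of complex I, was at 16.9 and 20.8 CPM in wild-type libraries WT_CCg_28 and WT_CCg_30 and at 19.7 and 16.2 CPM in knockout libraries KO_CCg_27 and KO_CCg_29. In the longer-numbered wild-type libraries WT_CCg_685232, WT_CCg_717652 and WT_CCg_7198587 it was at 24.6, 22.3 and 30.3 CPM, and in knockout libraries KO_CCg_693451, KO_CCg_693452, KO_CCg_717651 and KO_CCg_719856 at 27.6, 27.6, 26.0 and 25.7 CPM. All 4 values of the 2-digit libraries lay below all 7 of the others, and the log2 difference was -0.51 (SE 0.11, edgeR adjusted p = 0.00682). Uqcrq of complex III was at -0.51 (SE 0.12, edgeR adjusted p = 0.0117), with 37.5, 44.7, 41.9 and 39.6 CPM in libraries WT_CCg_28, WT_CCg_30, KO_CCg_27 and KO_CCg_29 and 47.0 CPM or more in the others. Cox5b of complex IV, the zinc-binding subunit, was at -0.43 (SE 0.09, edgeR adjusted p = 0.00828), Cox7b at -0.46 (SE 0.12, edgeR adjusted p = 0.0149) and Ndufa11 of complex I at -0.44 (SE 0.13, edgeR adjusted p = 0.024). Of complex V, Atp5d was at -0.41 (SE 0.10, edgeR adjusted p = 0.0127) and Atp5g1 at -0.39 (SE 0.12, edgeR adjusted p = 0.0307). These counts rested on few libraries: without knockout library KO_CCg_29 there were 5 lower nuclear members and 0 higher mitochondrial ones, without wild-type library WT_CCg_28 there were 8 and 0, and without any 1 library the medians stayed between -0.30 and -0.19 and between 0.18 and 0.29. Without wild-type library WT_CCg_30 or WT_CCg_7198587 the higher mitochondrial members were also 0.

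Promoter letters were searched in the 68 windows for motifs of factors known to act on these genes, on both strands. GCGCATGCG, 9 letters of the palindromic site of nuclear respiratory factor 1 and chosen after a longer form had been searched, was in 8 windows (11.8%) and in 2.41% of all 17491. The site CCGGAAG of ETS factors such as GABP was in 15 (22.1%, against 11.9%), AAGATGGCG of YY1 in 6 (8.82%, against 1.94%), TCAAGGTCA of the oestrogen-related receptors in 2 (2.94%, against 0.332%), TGACGTCA of CREB in 4 (5.88%, against 2.34%) and TATAAA in 7 (10.3%, against 13.3%). The GCGCATGCG letters were in the windows of Cox6a1, Uqcrc1, Uqcr11, Atp5g2, Atp5k, Atp5l, Ndufa8 and Ndufa11, all named for holding them. Shown are 3 of these stretches, of which Ndufa11 and Atp5k were lower in the 2-digit libraries and Atp5g2 (-0.24, edgeR adjusted p = 0.106) did not pass there. Capitals mark the motif, which overlaps itself on the opposite strand in each. The windows are 17:56717662-56717761 (plus strand) for Ndufa11, 5:108434400-108434499 for Atp5k and 15:102671048-102671147 for Atp5g2 (both minus strand). The Atp5k stretch reaches into the gene span of GENCODE, and the Atp5g2 stretch lies inside it.
Ndufa11: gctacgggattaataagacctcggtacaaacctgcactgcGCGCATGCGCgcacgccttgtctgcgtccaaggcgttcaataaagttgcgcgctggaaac
Atp5k: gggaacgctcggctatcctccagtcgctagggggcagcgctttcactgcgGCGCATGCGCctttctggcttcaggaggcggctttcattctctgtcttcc
Atp5g2: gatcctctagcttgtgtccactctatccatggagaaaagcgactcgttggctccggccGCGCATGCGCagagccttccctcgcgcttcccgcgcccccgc
A match is a description of these letters, not evidence of a bound site.

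The wider pathway gave no gene that passed in a genotype comparison or in the difference between tissues. In the callosum the median was 0.01 for 9 oxidative phosphorylation genes outside the naming rule, not all of them chain components. It was 0.08 for 16 complex I assembly factors and 0.04 for 31 assembly factors of the other complexes. It was 0.07 for 16 genes of the citric acid cycle (14 positive) and -0.03 for 25 genes of mitochondrial DNA expression and upkeep. It was 0.09 for 11 tested regulators of mitochondrial biogenesis. For 16 genes of protein import, folding and the mitochondrial membranes it was -0.02, and for 78 mitochondrial ribosome genes -0.01. In the nerve they were 0.02, -0.06, 0.03, -0.00, -0.06, 0.01, -0.04 and -0.03 in the same order. At an unadjusted p under 0.05 by edgeR were 0, 0, 4, 0, 2, 3, 1 and 0 genes of these lists in the callosum and 0, 0, 2, 0, 0, 1, 2 and 1 in the nerve. The shares over all genes were 11.7% in the callosum and 5.48% in the nerve. Ppargc1a, the coactivator that drives mitochondrial biogenesis, was at 0.37 (SE 0.14, edgeR adjusted p = 0.381) in the callosum and -0.17 (edgeR adjusted p = 0.845) in the nerve. The factors of mitochondrial transcription Tfam and Polrmt were at -0.06 and -0.04 in the callosum and -0.01 and 0.15 in the nerve, and the RNA-stabilising protein Lrpprc was at 0.08 and -0.01.

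Between the tissues these lists did hold genes that passed. In wild-type nerve 5 of the 31 assembly factors of complexes II to V were higher and 3 lower. Of all genes 51.3% passed there, 25.3% higher and 26.0% lower. Ttc19, a complex III factor, was at -1.17 (edgeR adjusted p = 9e-06), Atpaf1, an ATP synthase factor, at -0.51 (5.67e-04), and Uqcc3, another complex III factor, at 0.42 (0.00784). Of the citric acid cycle 1 gene was higher and 3 lower, among them Idh3a, a subunit of isocitrate dehydrogenase, at -0.58 (edgeR adjusted p = 2.81e-04), Dlat of pyruvate dehydrogenase at -0.44 (0.00747) and Suclg2 of succinyl-CoA ligase at 0.53 (0.00398). Of the 16 genes of the import list 5 were lower and none higher, beside 26.0% of all genes lower. The lower ones included the outer membrane receptors Tomm70a at -0.70 (edgeR adjusted p = 7.74e-04) and Tomm20 at -0.53 (0.00178). Of the 25 genes of mitochondrial DNA expression and upkeep 3 were higher and 6 lower, with Lrpprc at -0.39 (edgeR adjusted p = 0.00137) and Tfam at -0.28 (0.0285). Of the biogenesis regulators 1 was lower, Esrrg, an oestrogen-related receptor, at -3.66 (edgeR adjusted p = 7.44e-05).

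Among the chain components outside the naming rule, Cox4i1, the common form of subunit IV, passed in none of the comparisons. Its low-oxygen form Cox4i2 was higher in nerve than in callosum of knockout mice (0.79, edgeR adjusted p = 0.00292) and not past the threshold in the wild type (0.21, adjusted p = 0.483). Cytochrome c, Cycs, was lower in knockout nerve (-0.49, edgeR adjusted p = 0.00958) and at -0.06 in the wild type, and cytochrome c1, Cyc1, was lower in the 2-digit callosum libraries (-0.32, edgeR adjusted p = 0.0136).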

How the data were processed

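The deposited value is the authors' estimated count for a gene in a library, over 20 libraries, with no scaling to a common total; the quantifier kallisto is named by the deposited table itself, and the genome build mm10 is from the submitters' processing notes. RNA was purified with a micro kit and prepared with a stranded mRNA kit, per the labels' protocols. The quantifier's version, annotation and summing to genes are not given in sources used for this work. Of 46517 gene identifiers 46005 matched a symbol in GENCODE vM21 (GRCm38) with the version removed, and 27555 matched with it. Totals were 15401130 to 26095622, 0 pairs of libraries were identical, and 0 columns belonged to no sample.

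Libraries were grouped by the tissue and genotype in the labels. Estimated counts were rounded to whole numbers. Low genes were removed by filterByExpr at a minimum count of 10 and a minimum total of 15, and TMM factors scaled the libraries. The edgeR quasi-likelihood test (edgeR 4.0.16, limma 3.58.1, R 4.3.3) was fitted over all genes in each tissue apart, over all 20 libraries in 4 groups for the difference of the effects and for the tissue contrasts, and in the callosum with genotype for the number format. The threshold was an adjusted p under 0.05 (Benjamini-Hochberg, over all genes tested). Standard errors come from the log2 fold change and its F statistic. Levels of members in CPM use TMM factors over all 20 libraries, marker and Zdhhc9 levels are relative to all counts of the library, and levels per kilobase use the median length of a gene's annotated transcripts. A ratio of counts has an exact 95% interval for counting error only. The precision of low genes is limited by depth.

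The members and lists were chosen with earlier results of these data known. Named were all mitochondrial members, the largest rise and fall of each complex in both genotype comparisons and in the wild-type tissue contrast (mean log2 CPM of at least 1), up to 5 passing members in each direction of the other contrasts, the paired isoforms and c-ring genes, and up to 3 genes of each other list with a few fixed ones. Others are said to be named after their values were seen. Alternatives were DESeq2 size factors, factors from nuclear genes alone, no filter, DESeq2 1.42.0, limma-voom, covariates, subsets by number format, near-identical copies added, leaving out each library, and a replicate block. The pipeline was tested on simulated counts.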

Additional observations from a re-analysis of the deposited data

Results flagged for a closer look

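Within groups of 4 to 6 libraries, 18 of 224 values stood apart from the rest of their group by Dixon's test of the gap to the nearest library. Chance gives about 1 in 20. They fell in 7 libraries, and no cause was tested.

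Knockout callosum KO_CCg_717651 was the lowest of its group for all 7 complex I messages: mt-Nd1 at 2191 CPM (group median 2969), mt-Nd2 at 1399 (2243), mt-Nd3 at 263 (462), mt-Nd4 at 2933 (4100), mt-Nd4l at 469 (543), mt-Nd5 at 1690 (2495) and mt-Nd6 at 297 (556). Wild-type nerve WT_ON_719857 was low in the share of all counts held by mitochondrial members, at 3.34% (group median 4.25%), in mt-Atp6 at 3326 CPM (4219) and in mt-Nd1 at 2351 CPM (2897).

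Among nuclear members, knockout callosum KO_CCg_29 was the lowest for Atp5g1 at 42.9 CPM (67.3), Atp5g3 at 84.5 (120) and Sdha at 290.2 (341). Wild-type callosum WT_CCg_7198587 was the highest for Cox7a2 at 74.7 CPM (56.7) and Uqcrc2 at 145 (126). Knockout nerve KO_ON_719856 was the highest for Atp5e at 80.5 CPM (63.7), and wild-type nerve WT_ON_717652 for Cox7b at 52.3 CPM (44.7). Wild-type callosum WT_CCg_717652 had Cox8b at 0.0386 CPM, from 1 count, where the others were at 0.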

How the results depend on the processing

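No named gene changed direction while past the threshold. In the knockout tissue contrast the balance of nuclear calls turned from mostly higher to mostly lower without the 2-digit callosum libraries. In both genotype comparisons and in the difference between tissues the count of members past the threshold was 0 under every alternative run. The wild-type tissue contrast gave 1 mitochondrial call with DESeq2, 0 to 3 when each library was left out, and 11 to 26 nuclear calls. The knockout one gave 3 to 10 mitochondrial calls when each library was left out, and 3 without the 2-digit numbers. For the number format, chosen after seeing the data, leaving out each library gave 0 to 5 mitochondrial and 5 to 27 nuclear calls, and there were 1 mitochondrial call with DESeq2 size factors and 5 with DESeq2. The cause was not tested.

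A replicate block on the sample number was fitted over the 3 knockout numbers found in both tissues. It gave 0 mitochondrial and 9 nuclear calls with a nuclear median of -0.10. The same 6 libraries without the block gave 1 and 15 with a median of -0.094, so part of the loss was present without the block. The subset also changed the mix of number formats, so fewer libraries and a different choice of libraries cannot be told apart. Correlations of same-numbered libraries were 0.02, -0.15, -0.05 and 0.13, and no nerve library correlated best with its own. Values from different tissues cannot show whether a shared number means a shared animal. The numbers of WT_ON_719857 and WT_CCg_7198587 differ by 1 digit. Whether they are from 1 animal is not known, and they were not paired. Over all 20 libraries a replicate block in limma-voom gave 13 higher and 5 lower nuclear calls in the wild type and 24 and 8 with 7 mitochondrial ones in the knockout. Within a tissue no number is shared between genotypes, so the genotype comparisons have no paired fit. Depth limits Cox8b, Cox7b2 and Cox8c.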

Other observations

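The genes of the cytosolic ribosome, which makes the nuclear subunits, showed values unlike those of the members. In the callosum 1 of 81 tested genes had a positive log2 fold change of knockout over wild type, with a median of -0.22, and 31 were at an unadjusted p under 0.05, although 0 passed by edgeR. In the nerve the median was -0.02 and 1 was at an unadjusted p under 0.05. Between the tissues 46 were higher in wild-type nerve and 0 lower, with a median of 0.31, and 73 were higher and 0 lower in knockout nerve, with a median of 0.54. Of all genes 25.3% were higher in wild-type and 31.9% in knockout nerve. Rps9 was at 0.46 in the wild type and 0.79 in the knockout, and Rpl13a at 0.42 and 0.70.

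Of the 78 mitochondrial ribosome genes 12 were higher and 9 lower in wild-type nerve, and 20 and 12 in knockout nerve, where 51.3% and 62.9% of all genes passed in either direction. Mrps6 was at 0.93 and 1.05 and Mrps16 at 0.53 and 0.65. By number format in the callosum, 7 of 25 genes of mitochondrial DNA expression and upkeep were higher and 0 lower, with a median of 0.18, where 14.5% of all genes were higher and 13.3% lower.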
